A study of Mus musculus with 7 samples.

Results

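The cytosolic ribosomal protein genes were examined in tibialis anterior (TA) muscle of WT and miR-486 KO mice. Members were taken by symbol: Rpsa, and every Rpl or Rps gene whose name is P0 to P2 or a number, with or without the endings a, al, l, l1 or x. Of 48795 gene entries in the count table, 86 had such a name, and 83 of them are annotated as protein coding, 52 of the large subunit and 31 of the small subunit. The pseudogenes Rpl6l, Rps12l1 and Rps4l were left out. In all, 80 of the 83 (49 large, 31 small) passed the filter on low counts, which 14002 genes of the whole table passed. The 3 that did not were Rpl10l, with 0 reads in every library, Rpl24, with 2 to 7 reads, and Rpl39l, with 0 to 7 reads. For Rpl24, 18.3% of stretches of 50 bases are found in no other gene, and 1 annotated gene overlaps it. How far this lowers its count was not tested, so its level is uncertain.

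TA lies at the front of the lower leg and is made mostly of fast fibres. RNA was sequenced from 3 WT and 4 miR-486 KO libraries of males aged 6 months, and reads were counted per gene. The KO mice lack the miR-486 hairpin, which lies in an intron of Ank1, in every cell of the body, after a deletion made by CRISPR. The labels assign the C57BL/6 strain to WT animals and FVB N/J to KO animals, yet the WT data columns are named FVB, and a single shared background is described in the study's methods. Strain and genotype therefore cannot be told apart here. The study's methods speak of separate mice in each cohort, and of more WT mice than the 3 WT libraries used here. The labels do not tie a library to an animal, so every p-value measures spread between libraries.

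Ribosomal proteins surround the ribosomal RNA of the small and the large subunit, and most of them are needed for a working ribosome. Their messages are among the shortest and most abundant of a cell, and most begin with a run of pyrimidines at the 5′ end (the TOP motif) through which mTORC1, a nutrient- and growth-sensing kinase complex, controls their translation. A few ribosomal proteins have a paralog used in particular tissues. Rpl3, which reaches into the catalytic centre of the large subunit, is largely replaced in heart and skeletal muscle by Rpl3l.

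The coding sequences of this muscle pair show how far their reads can be separated. The first 60 coding bases are given, from the GENCODE M21 transcripts, with capitals where the paralogs differ:

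Rpl3l: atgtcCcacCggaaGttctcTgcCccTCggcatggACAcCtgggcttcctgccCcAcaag

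Rpl3: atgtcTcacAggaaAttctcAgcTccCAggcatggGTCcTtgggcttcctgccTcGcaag

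These stretches differ at 13 of 60 bases. Over 1205 aligned coding bases the pair was 74.4% identical, and the longest identical run was 22 bases. Rpl3l shared no stretch of 50 bases with any other annotated transcript. For Rpl3, in contrast, 14.4% of such stretches were its own, and 25 of the 26 genes that shared one with it are pseudogenes. The level of Rpl3 is therefore uncertain. Shared stretches were common in this family. Among the 80 tested genes, the median share of 50-base stretches found in no other gene was 41.3%, the share was under 50% in 51 genes, and it was lowest in Rps27 (1.35%). In 79 of the 83 genes at least 1 stretch was shared with a pseudogene. Reads with more than 1 alignment were not assigned to genes and made up 24.4% to 34.3% of each library's reads.

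Library WT 3 stood apart from the other 6, and in the ribosomal protein genes it did so mostly in 1 direction. Each library held 23839577 to 28168275 reads on genes. In log2 abundance over all tested genes, WT 3 correlated with the other libraries at 0.937 to 0.951, and the other libraries with each other at 0.975 to 0.992. WT 3 also had the highest share of reads without a unique alignment (34.3%, against 24.4% to 30.3%) and the highest share of mitochondrially encoded reads (22.4%, against 13.0% to 17.9%). The sum of 5 myeloid markers was 79.5 CPM in WT 3 and 29.4 to 49.5 CPM in the others, but its members were split. Cd68, a macrophage gene, was at 22.8 CPM against 1.13 to 2.82 CPM, and Csf1r and Lyz2 were also highest in WT 3. Ptprc (1.28 CPM) and the macrophage gene Adgre1 (0.411 CPM) were lowest there. The part of these features in the results was not tested. Differences of the ribosomal protein genes are therefore given with and without WT 3.

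**Figure D1:**
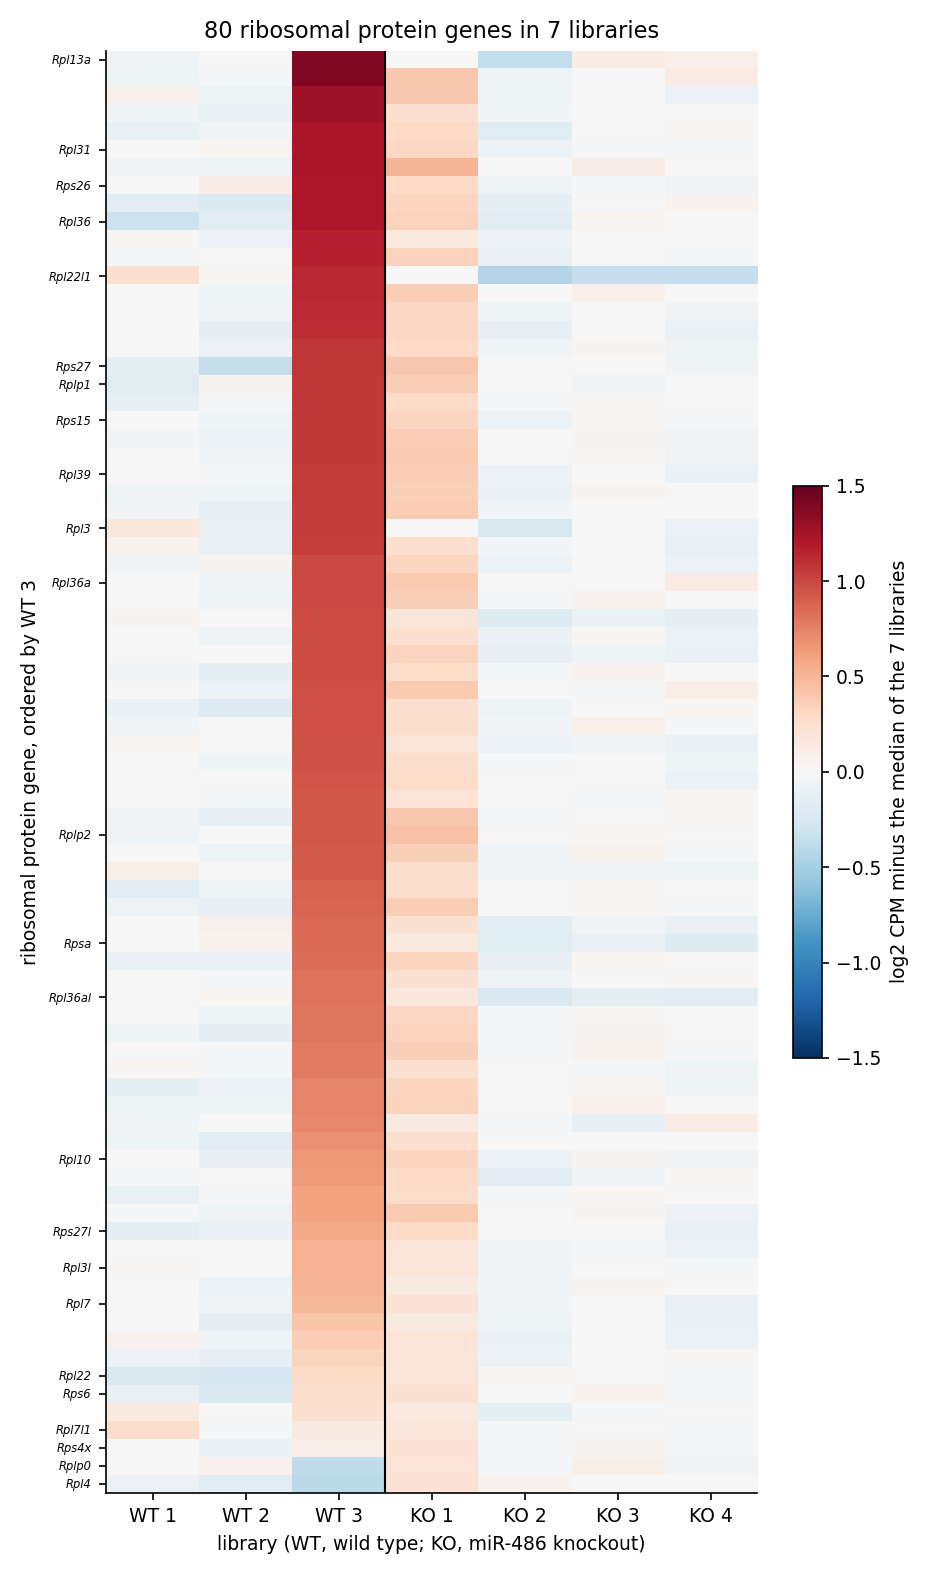
Level of the 80 tested ribosomal protein genes in each library, as log2 CPM (reads relative to the TMM-scaled library total) minus the gene's median over the 7 libraries, with genes ordered by WT 3, the genes of the naming rule labelled and a line between WT and KO. WT 3 is above the other 6 libraries in 76 genes, with Rpl4 and Rplp0 at the bottom as the genes in which it is below them.

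The ribosomal protein genes together took 1.06%, 0.992% and 1.65% of gene counts in WT 1, WT 2 and WT 3, and 1.28%, 1.01%, 1.07% and 1.03% in KO 1 to KO 4. The WT share was 1.23% ± 0.358 (SD, n = 3) and the KO share 1.10% ± 0.124 (SD, n = 4). WT 3 was highest and KO 1 second, the remaining 5 libraries lay close together, and the groups overlapped. Without WT 3, the WT mean was 1.03%, below the KO mean. Large-subunit genes took 0.718% ± 0.187 of WT and 0.653% ± 0.0693 of KO counts, and small-subunit genes 0.516% ± 0.171 and 0.444% ± 0.0551. Entries named as ribosomal protein pseudogenes, 279 in all, held reads equal to 0.272% to 0.373% of those on the coding genes. Reads with more than 1 alignment were not assigned, so this share cannot show how many reads fit both a pseudogene and a coding gene. In bulk muscle, fewer cells of a type and less RNA per cell cannot be told apart.

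**Figure D2:**
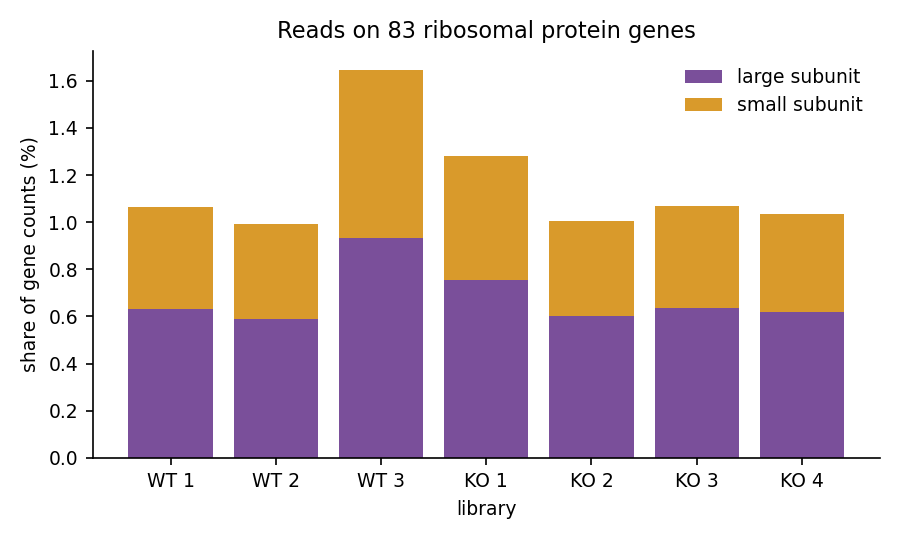
Share of all gene counts (%) on the 83 ribosomal protein genes in each library, stacked by subunit. WT 3 reaches 1.65%, KO 1 1.28%, and the other 5 libraries 0.992% to 1.07%.

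In WT 3, 76 of 80 tested genes (95%) were above all other libraries in CPM (reads relative to the library total, scaled by the TMM method), where 36.2% of all genes were, and 2 (2.5%) were below them, where 34.5% of all genes were. The median of the log2 ratio of WT 3 to the mean of the other 6 libraries was 0.90, a 1.87-fold difference, beside 0.02 over all genes. The ratio was highest in Rpl13a (1.42), Rps29 (1.32), Rpl27 (1.26) and Rpl22l1 (1.25). It was near 0 in Rpl7l1 (0.07) and Rps4x (0.07) and negative in Rpl4 (-0.41) and Rplp0 (-0.43). Rpl4, which lines the exit tunnel for the new protein, and Rplp0, the base of the stalk that recruits translation factors, are among the longest coding sequences of the family. Over the other 6 libraries the ribosomal protein genes had a coefficient of variation of 5.46% to 19.0% (median 10.6%).

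The excess in WT 3 went with coding length. Its median log2 ratio was 1.06 in the 9 genes under 300 coding bases, 0.95 in the 48 genes from 300 to under 600, 0.62 in the 19 genes from 600 to under 900 and 0.04 in the 4 genes of 900 and over. Those 4 were split, with Rpl4 at -0.41, Rplp0 at -0.43, Rpl3l at 0.50 and Rpl3 at 1.08, so none lay near their median. In other genes of the same length classes the median was 0.58, 0.34, 0.16 and -0.11. The shorter genes were thus higher in WT 3 in both sets, and the median of the ribosomal protein genes was above that of the other genes in each class. The class of 900 and over has no upper bound. Its ribosomal protein genes reach 1257 coding bases, while its 9265 other genes can be much longer, so that class is not matched for length. The Spearman correlation of the ratio with coding length was -0.50 across the 80 genes and -0.25 across 12502 other genes. It was -0.48 without the 4 longest genes and -0.48 without the 9 shortest. All these points share the same libraries, and genes are not independent replicates.

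**Figure D3:**
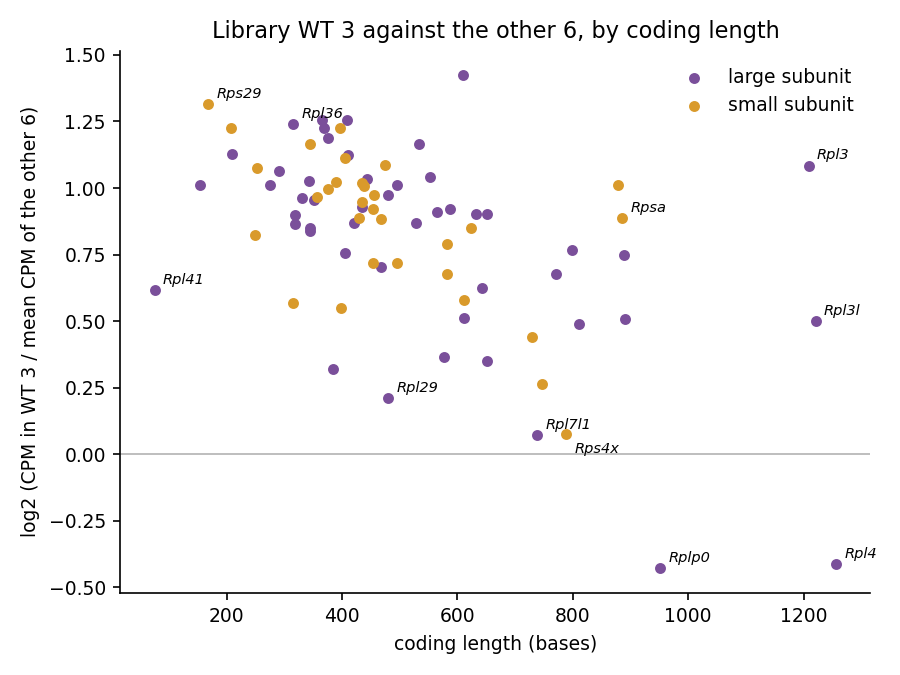
Log2 ratio of CPM in WT 3 to the mean CPM of the other 6 libraries (vertical axis) against coding length in bases (horizontal axis), 1 point for each of the 80 tested genes, coloured by subunit. The ratio runs from -0.43 (Rplp0) to 1.42 (Rpl13a) and is lower in longer genes, with Rpl3 (1.08) above the other long genes.

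KO 1 showed a smaller shift in the same direction. It was the highest KO library in 78 of 80 genes (97.5%), where 33.8% of all genes had their highest KO value in KO 1. After WT 3, it also had the largest share of reads without a unique alignment (30.3%) and of mitochondrially encoded reads (17.9%).

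With all 7 libraries, no ribosomal protein gene passed the test between genotypes. By edgeR's quasi-likelihood test with Benjamini-Hochberg adjustment over 14002 genes, 0 of 80 were called at an adjusted p under 0.05, where 2.81% of all genes were called (0.964% higher and 1.85% lower in KO). At an unadjusted p under 0.05 there was 1 gene, where 20.2% of all genes passed. DESeq2 also called 0 of the family, where it called 6.53% of all genes, with 2 at an unadjusted p under 0.05. The log2 fold change, KO over WT, had a median of -0.29 in the family and -0.02 over all genes, ran from -0.82 to 0.28, and was below 0 in 75 of 80 genes. Both subunits had a like median, -0.31 in the large and -0.28 in the small. The median standard error was 0.25, about as large as the median change.

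Without WT 3 the direction of the family turned. Its median became 0.11, beside 0.01 over all genes, with 68 of 80 genes above 0, a range of -0.40 to 0.35 and a median standard error of 0.11. Of the 80 genes, 1 was called higher in KO, where 6.15% of all genes were, and 0 were called lower, where 6.55% were (12.7% in both directions). At an unadjusted p under 0.05 there were 6 genes, where 27.6% of all genes passed. In CPM, 21 genes (26.3%) had every KO library above WT 1 and WT 2, where 18.8% of all genes did, and only Rpl22l1 had every KO library below both, where 19.2% of all genes did. A fit by limma voom that kept WT 3 at a low weight (0.0770, beside 0.685 to 2.43 for the others) gave a median of 0.03 and called 1 gene of the family, lower in KO, where it called 16.8% of all genes (8.77% lower).

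**Figure D4:**
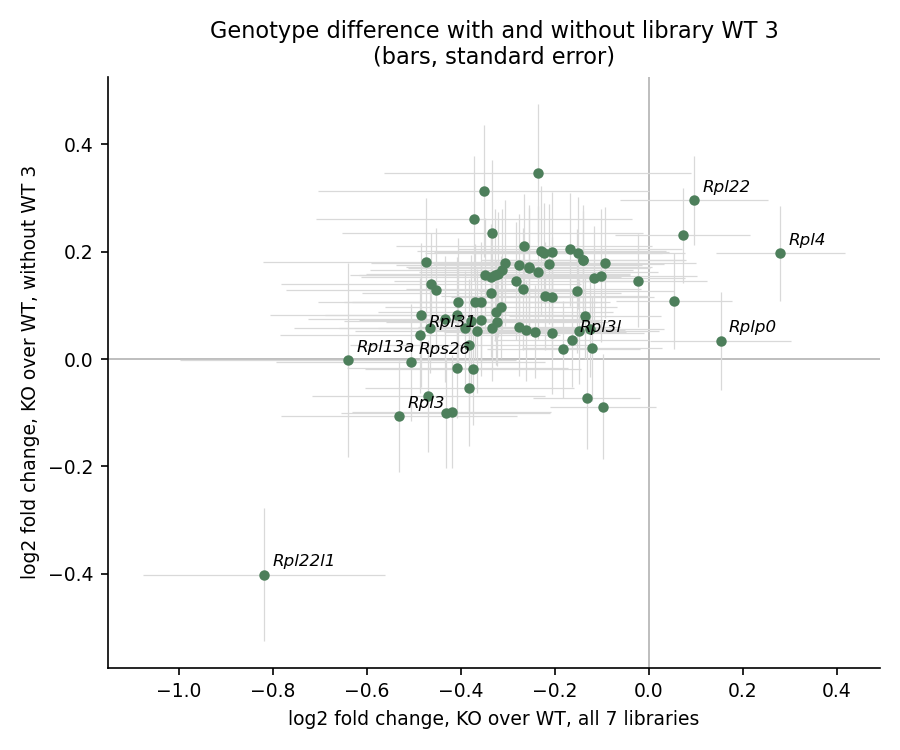
Log2 fold change, KO over WT, of the 80 tested genes with all 7 libraries (horizontal axis) and without WT 3 (vertical axis), with bars of 1 standard error. Most points lie left of 0 and above 0, and Rpl22l1 is lowest on both axes (-0.82 and -0.40).

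Rpl22l1 had the largest difference between genotypes in the family. It is the paralog of Rpl22, an RNA-binding protein of the large subunit, and in mice that lack Rpl22 its level is known to rise. Rpl22l1 lies at chr3:28805436-28807424 (GRCm38, plus strand) and overlaps an annotated gene on the other strand. It was at 27.5, 23.5 and 50.9 CPM in WT 1 to WT 3 and at 23.3, 17.2, 18.3 and 18.3 CPM in KO 1 to KO 4. Every KO library was below every WT library, by a narrow margin between KO 1 and WT 2. It was the only member of the family with that order, which 11.4% of all genes had. Its log2 fold change was -0.82 (standard error 0.26), which did not pass the test (edgeR, adjusted p = 0.133), and the adjusted p with DESeq2 was 0.0550. Without WT 3 the log2 fold change was -0.40 (standard error 0.12, edgeR, adjusted p = 0.0610), and the weighted limma voom fit gave -0.47 with an adjusted p of 0.0169, past the threshold.

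Rpl22 itself was at 94.0, 92.6 and 134 CPM in WT and at 126, 112, 110.04 and 108 CPM in KO. WT 3 was above every KO library, while WT 1 and WT 2 were below all 4. Its log2 fold change was 0.10 (standard error 0.16, edgeR, adjusted p = 0.746) with all libraries. It became 0.30 (standard error 0.083, edgeR, adjusted p = 0.0435) without WT 3, the single call of the family in that fit. With the weighted fit it was 0.24 (limma voom, adjusted p = 0.0570).

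The ratio of the paralogs within a library does not depend on how libraries are scaled. Counts of Rpl22l1 were 806, 627 and 1237 in WT and 619, 433, 490 and 444 in KO. Counts of Rpl22 were 2755, 2467 and 3250 in WT and 3360, 2827, 2945 and 2627 in KO. Per exonic length, the ratio of Rpl22l1 to Rpl22 was 0.428, 0.372 and 0.557 in WT and 0.270, 0.224, 0.244 and 0.247 in KO. All KO libraries were below all WT libraries, with WT 3 the highest. Per length of the longest coding transcript, the ratio was 0.944 to 1.41 in WT and 0.569 to 0.685 in KO, so which paralog is the higher in WT depended on the length. Of 50-base stretches, 34.4% in Rpl22l1 and 75.5% in Rpl22 are found in no other gene, which also leaves their relative level uncertain. On the log2 scale the ratio was -1.16 ± 0.296 (SD, n = 3) in WT and -2.03 ± 0.109 (SD, n = 4) in KO, a difference of -0.86. The two-sided exact permutation p was 0.0286, the smallest that this test allows with 3 and 4 libraries, and 0.171 after Benjamini-Hochberg adjustment over the 6 pairs compared. Without WT 3 the difference was -0.70 (exact permutation p = 0.0667, the smallest that 2 and 4 libraries allow). The pair was 70.2% identical in coding sequence, with a longest identical run of 26 bases.

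Some markers of other cells differed by genotype in the same libraries. The summed level of 5 fibroblast markers (Col1a1, Col1a2, Col3a1, Dcn and Pdgfra) was 973 to 1069 CPM in WT and 383 to 593 CPM in KO. The difference lay in the 3 collagen genes, which passed the test as lower in KO. Dcn was at 205, 211 and 130 CPM in WT and at 199.6, 244, 266 and 215 CPM in KO, and neither it nor Pdgfra was lower in the fit. The sum of 5 endothelial markers was 239 to 311 CPM in WT and 189 to 216 CPM in KO, with 1 of 5 past the test, and that of 5 slow-fibre markers 55.1 to 113 and 40.6 to 45.6 CPM, also with 1 of 5. Fast-fibre markers summed to 162030 to 183530 CPM in WT and 146720 to 169770 CPM in KO, with 0 of 10 past the test. The sums of satellite cell, myeloid, adipocyte, Schwann cell and erythroid markers overlapped between WT and KO, with 0 genes past the test in each list. The part of these cells in the Rpl22l1 and Rpl22 values was not tested.

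Rpl3l was among the most abundant members. At chr17:24727820-24736143 (GRCm38, plus strand), it had 11121, 9951 and 13121 reads in WT and 11412, 9142, 10064 and 9013 reads in KO, or 379, 374 and 539.9 CPM and 429, 363, 376 and 371 CPM. The groups overlapped. Its log2 fold change was -0.16 (standard error 0.17, edgeR, adjusted p = 0.594), and 0.04 (standard error 0.088, adjusted p = 0.832) without WT 3.

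Rpl3 was low in every library. It had 865, 655 and 1325 reads in WT and 704, 562, 711 and 604 reads in KO, or 29.5, 24.6 and 54.5 CPM and 26.5, 22.3, 26.6 and 24.8 CPM. WT 2 lay within the range of the KO libraries, WT 1 a little above it and WT 3 far above it. The log2 fold change was -0.53 (standard error 0.25, edgeR, adjusted p = 0.281), and -0.11 (standard error 0.10, adjusted p = 0.552) without WT 3.

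Per exonic length, Rpl3l was 24.8, 29.4 and 19.1 times Rpl3 in WT and 31.3, 31.4, 27.4 and 28.8 times Rpl3 in KO. The muscle paralog thus had more assigned reads per length in all 7 libraries, with WT 3 the lowest ratio and the groups overlapping. With the length of the longest coding transcript in place of all annotated exons, the ratio was between 9.73 and 15.98. The log2 ratio was 4.59 ± 0.311 (SD, n = 3) in WT and 4.89 ± 0.0975 (SD, n = 4) in KO, and the difference of 0.30 was within the spread (two-sided exact permutation p = 0.114, adjusted p = 0.229 over 6 pairs). It was 0.14 without WT 3 (exact permutation p = 0.267). Stretches of Rpl3 are shared with pseudogenes and those of Rpl3l are not, and how far this moves the ratio was not tested.

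**Figure D5:**
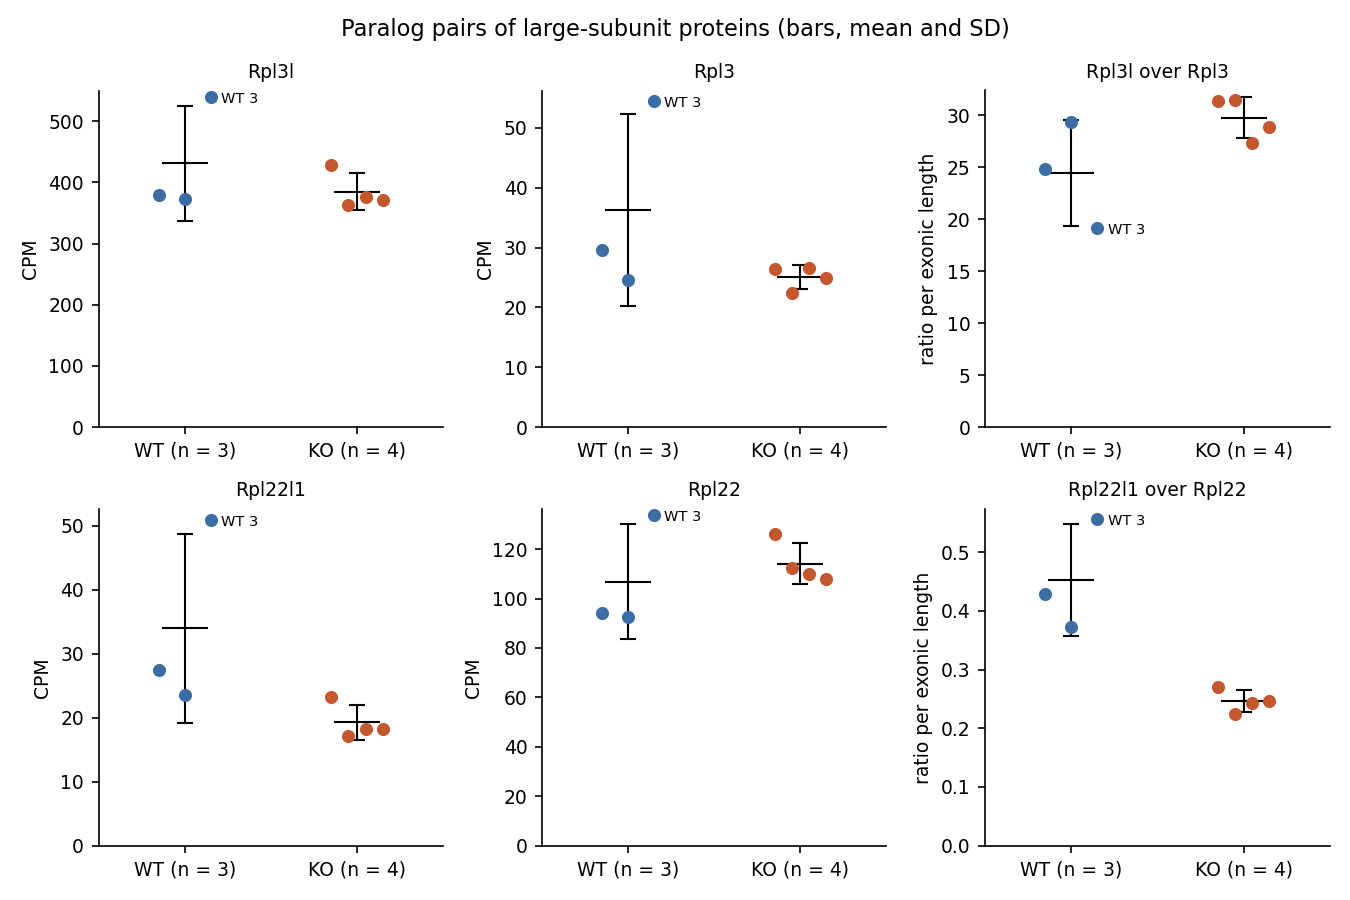
CPM of Rpl3l and Rpl3 and of Rpl22l1 and Rpl22, and the ratio of each pair per exonic length, with 1 point per library and bars for the mean and SD (WT, n = 3; KO, n = 4). For Rpl22l1 over Rpl22 the KO libraries (0.224 to 0.270) lie below the WT libraries (0.372 to 0.557), and for Rpl3l over Rpl3 the groups overlap.

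The other pairs differed less between genotypes. Rpl36al, an intronless copy of Rpl36a, which sits near the exit site for transfer RNA, was 1.35, 1.41 and 1.19 times Rpl36a per exonic length in WT. In KO it was 1.14, 1.15, 1.22 and 1.09 times Rpl36a. Per length of the longest coding transcript the ratio was 0.368 to 0.436 in WT and 0.338 to 0.376 in KO, so which paralog was the higher depended on the length used. Of 50-base stretches, 36.7% in Rpl36al and 14.5% in Rpl36a are found in no other gene, which also leaves their relative level uncertain. Only KO 3 and WT 3 crossed, and the log2 difference was -0.20 (two-sided exact permutation p = 0.0571, adjusted p = 0.171), or -0.27 without WT 3 (exact permutation p = 0.0667). This pair was 87.7% identical in coding sequence, the closest of the pairs compared. Their first 60 coding bases (GENCODE M21), with capitals where they differ, show the short runs that separate their reads:

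Rpl36al: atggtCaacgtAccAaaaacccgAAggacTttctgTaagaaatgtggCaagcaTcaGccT

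Rpl36a: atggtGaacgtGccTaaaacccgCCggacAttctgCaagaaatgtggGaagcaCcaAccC

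They differ at 11 of 60 bases. Per exonic length, Rpl7l1 was 0.0729 to 0.112 times Rpl7 in WT and 0.0901 to 0.0994 times in KO. The log2 difference was 0.04 (exact permutation p = 0.800). Rps27l was 0.380 to 0.643 times Rps27 in WT and 0.497 to 0.539 times in KO, also per exonic length. Its log2 difference was 0.04 (exact permutation p = 0.771), and both differences turned negative without WT 3 (-0.13 and -0.17). Per length of the longest coding transcript, Rps27l was 0.237 to 0.401 times Rps27 in WT and 0.310 to 0.336 times in KO. Of 50-base stretches, 86.3% in Rps27l and 1.35% in Rps27 are found in no other gene, which leaves their relative level uncertain. Rplp1 and Rplp2, the acidic proteins that form the stalk on Rplp0, kept to a narrow ratio of 7.25 to 8.71 in WT and 7.51 to 7.93 in KO per exonic length (3.37 to 4.05 over all libraries per coding transcript length), with a log2 difference of -0.06 (exact permutation p = 0.514). The testis paralogs Rpl10l and Rpl39l and the pseudogene Rps4l had under 10 reads in at least 1 library, and their pairs were not compared.

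Among the large-subunit genes with the largest differences, Rpl13a had the fewest reads of all tested members. In human cells this protein is also known to leave the ribosome and silence inflammatory messages. It was at 2.83, 2.93 and 7.69 CPM in WT and at 2.93, 2.27, 3.18 and 3.08 CPM in KO. WT 3 stood alone, and the other 6 libraries could not be told apart by group. The log2 fold change was -0.64 (standard error 0.36, edgeR, adjusted p = 0.355), and -0.00 without WT 3 (adjusted p = 0.996). Rpl31, at the rim of the exit tunnel, had 106, 108 and 248 CPM in WT and 131, 99.7, 105 and 104 CPM in KO. Its log2 fold change of -0.49 (standard error 0.30, edgeR, adjusted p = 0.391) became 0.04 without WT 3.

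Rpl4 had the largest positive difference with all libraries. It was at 528, 505 and 425 CPM in WT and at 654, 582, 564 and 562 CPM in KO. Every KO library was above every WT library, and WT 3 was the lowest. It was the only member with that order, which 11.0% of all genes had. The log2 fold change was 0.28 (standard error 0.14), which did not pass the test (edgeR, adjusted p = 0.293), and it was 0.20 (standard error 0.089, adjusted p = 0.183) without WT 3. Rplp0, often used as a reference gene, had 429, 449 and 331 CPM in WT and 496, 425, 457 and 414 CPM in KO. Its groups overlapped, and its log2 fold change was 0.15 (standard error 0.15, edgeR, adjusted p = 0.585) with all libraries and 0.03 without WT 3.

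In the small subunit, Rps26, which touches the message at the exit channel, was at 88.4, 95.7 and 205 CPM in WT and at 109, 83.9, 87.3 and 85.04 CPM in KO. WT 3 was again alone above the rest. Its log2 fold change was -0.51 (standard error 0.29, edgeR, adjusted p = 0.360), and -0.01 without WT 3. Rpsa, a small-subunit protein also described as a laminin receptor, had 316, 328 and 568 CPM in WT and 349.8, 278, 294 and 277 CPM in KO, with a log2 fold change of -0.43 (standard error 0.22, edgeR, adjusted p = 0.315), and -0.10 without WT 3. Its KO and WT ranges crossed only through KO 1.

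Rps6, the substrate of the S6 kinases downstream of mTORC1, was at 76.8, 71.6 and 99.3 CPM in WT and at 97.0, 82.9, 86.1 and 81.2 CPM in KO. All KO libraries lay between WT 1 and WT 3. The log2 fold change was 0.07 (standard error 0.14, edgeR, adjusted p = 0.792), and 0.23 (standard error 0.089, adjusted p = 0.123) without WT 3. Rps4x, the X-linked copy of Rps4, varied little, with 222, 208 and 237 CPM in WT and 257, 219, 229 and 217 CPM in KO and a log2 fold change of 0.05 (standard error 0.12, edgeR, adjusted p = 0.819), or 0.11 without WT 3.

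Levels between members can be compared only per length. As mean CPM per kilobase of annotated exon over the 7 libraries, the highest were Rplp1 (489.5), Rps15 (320.2), which lies near the decoding site, Rpl36 (287), Rpl4 (272) and Rplp0 (258), followed by Rpl3l (246). The lowest of the 80 tested genes were Rpl13a (1.68), Rpl3 (9.40) and Rpl7l1 (9.70). Per kilobase of a single coding transcript, Rplp1 was again the highest (489.5) and Rpl13a (3.40), Rpl3 (22.1) and Rpl7l1 (25.9) again the lowest, while Rps27 (459) came after Rplp1. The order of the upper members thus depended on the length used. Of the genes named here, those with the smallest share of stretches of their own were Rps27 (1.35%) and Rpl10 (7.87%). Among the lowest genes, this share was 42.6% in Rpl13a, 14.4% in Rpl3 and 87.8% in Rpl7l1. They overlap 6, 5 and 1 other annotated genes. The part of lost reads in their low rank was not tested.

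Sequences at the start of transcription were searched for a TOP-like run. In RefSeq promoters (GRCm38.p6), a C followed by at least 6 bases that are each C or T, on the gene's strand and beginning from 5 bases before to 10 bases after an annotated start, was present in 26 of 63 members with an entry (41.3%) and in 2791 of 27025 genes (10.3%). The 30 bases from 10 before the start onwards are shown for the gene with the largest difference (Rpl22l1) and for genes with and without the run, with the run in capitals:

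Rpl22l1, chr3:28805498-28805527, plus strand: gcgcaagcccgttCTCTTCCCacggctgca

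Rps6, chr4:86857348-86857377, minus strand: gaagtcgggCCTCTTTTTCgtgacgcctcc

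Rps26, chr10:128626487-128626516, minus strand: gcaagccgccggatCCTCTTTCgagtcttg

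Rpl13a, chr7:45128726-45128755, minus strand: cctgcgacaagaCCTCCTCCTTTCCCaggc

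Rpl4, chr9:64173377-64173406, plus strand: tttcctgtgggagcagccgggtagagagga

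Rplp0, chr5:115559457-115559486, plus strand: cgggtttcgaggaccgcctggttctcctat

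A match is a description of these letters and depends on where the start is annotated, and its absence says only that the window does not hold it. Rpl22l1, Rps6, Rps26 and Rpl13a had the run, and Rpl4, Rplp0, Rpl22, Rpl3l and Rpsa did not. The median log2 ratio of WT 3 to the other libraries was 0.97 in the 26 tested genes with the run and 0.88 in the 34 tested genes without it. The median log2 fold change without WT 3 was 0.10 and 0.12 in the same genes.

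Other genes of the ribosome and of its control were set beside the family. Rps3a1, Fau and Rack1, proteins of the small subunit that the name rule does not take, were highest in WT 3, like most of the family. Their log2 fold changes with all libraries were -0.09, -0.17 and -0.02 (edgeR, adjusted p = 0.783, 0.715 and 0.961). Without WT 3 they were 0.13, 0.22 and 0.17 (adjusted p = 0.450, 0.216 and 0.256). Of 77 tested mitochondrial ribosomal proteins, which serve the separate ribosome of the organelle, 0 passed with all libraries (median log2 fold change -0.22, 68 below 0) and WT 3 was highest in 62, where it was in 36.2% of all genes. Without WT 3 the median was -0.03, and 2 of the 77 were called higher and 1 lower, where 6.15% and 6.55% of all genes were. Mrpl14 was at 0.47 (edgeR, adjusted p = 0.0389), against -0.04 with all libraries, so that its direction turned. Mrps9 was at 0.38 (adjusted p = 0.0428), against 0.30, and Mrpl48 at -0.29 (adjusted p = 0.0308), against -0.48 with all libraries.

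Of 19 translation factors and other TOP messages, 0 passed with all libraries (median log2 fold change -0.01). Without WT 3, 3 were called higher and 0 lower, where 6.15% and 6.55% of all genes were. They were the histone chaperone Nap1l1 (0.48, edgeR adjusted p = 0.00357) and the initiation factors Eif3e (0.42, adjusted p = 0.0151) and Eif4b (0.36, adjusted p = 0.0385). With all libraries their log2 fold changes were 0.68, 0.31 and 0.61 (adjusted p = 0.0892, 0.238 and 0.206). Of 34 ribosome biogenesis genes 0 passed with all libraries and 1 without WT 3, Nop58 (log2 fold change 0.43, adjusted p = 0.0114, against 0.23 and 0.428 with all libraries), a core protein of the small nucleolar particles that modify ribosomal RNA. WT 3 had 17.4 CPM of Nop58, above every KO library (15.8 to 16.3 CPM). Of 6 snoRNA host genes 0 passed with all libraries and 1 without WT 3, Snhg5 (-0.40, adjusted p = 0.0456, against -0.55 and 0.0843 with all libraries). In both lists, 12.7% is the share of all genes called without WT 3.

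Of 20 genes of mTORC1 and its control of TOP messages, 0 passed with all libraries, where 2.81% of all genes did. Without WT 3, 3 were called higher and 2 lower, where 12.7% of all genes were called. Ddit4, a stress-induced inhibitor of mTORC1, was at 3.79, 4.88 and 86.4 CPM in WT and at 214, 173, 181 and 232 CPM in KO. All KO libraries were above all WT libraries, and WT 3 lay between the other WT libraries and KO. Its log2 fold change was 2.66 (standard error 1.02, edgeR, adjusted p = 0.197) with all libraries and 5.53 (adjusted p = 4.11e-07) without WT 3. Eif4ebp1, a repressor of the cap-binding protein, changed by 0.42 (adjusted p = 0.0129) and Castor1, an arginine sensor, by 0.60 (adjusted p = 0.0383) in that fit. The cap-binding protein gene Eif4e changed by -0.53 (adjusted p = 0.00220) and Deptor, another inhibitor of mTORC1, by -0.79 (adjusted p = 0.00569). With all libraries Eif4ebp1 was at 0.22, Castor1 at 0.26, Eif4e at -0.39 and Deptor at -0.40 (adjusted p = 0.457, 0.561, 0.192 and 0.583). WT 3 was above every KO library in Eif4ebp1 (36.0 CPM, KO 31.2 to 35.6) and Castor1 (4.11 CPM, KO 3.35 to 3.62). In Deptor it was below every KO library (17.1 CPM, KO 28.1 to 40.3), and in Eif4e it lay within the KO range (87.3 CPM, KO 81.3 to 90.8). The calls without WT 3 rest on WT 1 and WT 2 as the only controls.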

How the data were processed

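RNA of TA muscle was measured in 3 WT and 4 miR-486 KO libraries, grouped and numbered by their titles. The authors deposited raw counts, whole numbers of reads for each Ensembl gene. The tools named in the submitters' processing notes are HTSeq 0.6.1, STAR 2.5.2b, Trim Galore 0.4.2 and CASAVA 1.8.2, but the study's methods give another route, with transcript quantification after a stranded library kit. For these counts the build, annotation release and strand setting were not given in the sources used here, so reads of overlapping or antisense genes (46 and 21 members) are uncertain. The 5 summary entries of the table entered neither library sizes nor tests. They held reads without a unique alignment (24.4% to 34.3%), without a feature (3.25% to 4.34%) or ambiguous (4.04% to 4.44%).

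Of 48795 identifiers, 48435 matched GENCODE M21 (GRCm38), 41427 with the same version. Counts were fitted with edgeR 4.0.16 in R 4.3.3 (filterByExpr with a minimum count of 10, TMM, glmQLFit, glmQLFTest, genotype as the only term). Adjustment was by Benjamini-Hochberg over all 14002 genes tested, and the threshold was 0.05. The standard error is the log2 fold change over the square root of F. Paralog ratios were compared by exact permutation over libraries. The steps were tested on simulated counts. Alternatives were other scalings, no count filter, DESeq2 1.42.0 (missing adjusted p left missing), limma 3.58.1 voom with sample weights, no mitochondrially encoded genes, a replicate block, and each library left out in turn. No pair of libraries agreed within sampling noise by a chi-square test of counts.

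The members and lists were chosen with earlier results of these data known. Named genes are Rpl3 and Rpl3l, members past the threshold, the 5 largest positive and 5 largest negative differences, the 5 highest and 3 lowest levels per length, paralog pairs, Rpsa, Rplp0, Rplp1, Rplp2 and Rps6. Rps29 and Rpl27 were named after their values were seen. Some results are not reported here.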

Additional observations from a re-analysis of the deposited data

Results flagged for a closer look

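In the named genes, 32 groups of 4 libraries were checked for a library far from the others, of which chance gives about 1 in 20. KO 1 was above the other 3 KO libraries by such a gap in 6 genes. It had 109 CPM of Rps26 (the others 83.9 to 87.3), 131 CPM of Rpl31 (99.7 to 105) and 267 CPM of Rplp1 (200.3 to 207). It also had 147 CPM of Rplp2 (108 to 111), 181 CPM of Rps27 (132 to 138) and 36.2 CPM of Rpl7l1 (31.6 to 32.1). These genes are not independent, since they share the library. The group of 3 WT libraries is too small for this check.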

How the results depend on the processing

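The count of called genes (394 with all libraries) was 1007 with DESeq2 and 2347 with limma voom and sample weights, and 20 to 1802 with 1 library left out. The highest was without WT 3, and the others were 289 and 139 without WT 1 and WT 2, and 48, 44, 20 and 21 without KO 1 to KO 4. Of the family, voom called 1 gene lower (Rpl22l1), the fit without WT 3 called 1 higher (0 to 1 over libraries left out), and 0 were called in any other setting run. The family's median ran from -0.46 to 0.11 with 1 library left out, above 0 only without WT 3, and was 0.03 with voom. The Rpl22l1 to Rpl22 difference ran from -0.99 to -0.70 with 1 library left out, where the smallest possible exact p is 0.0667 or 0.100. The replicate numbers did not pair the libraries (correlations of deviations -0.31, 0.26 and -0.12). With the replicate block, without KO 4, 0 genes were called in all and the family's median was -0.18. The Rpl22l1 to Rpl22 difference was -0.86 in that setting (exact p = 0.250, the smallest possible with the block).

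Directions of uncalled genes turned in 3 ways. With voom, Rplp0 became -0.0017, Rpl36 0.20, Rps15 0.022, Rplp1 0.047, Rpl10 0.052, Rpl36a 0.089, Rps27l 0.094, Rps27 0.25 and Rplp2 0.053. Rps4x became -0.013 with upper quartile scaling. With 1 library left out, ranges crossed 0 for Rpl3l (-0.24 to 0.036), Rpl31 (-0.69 to 0.044), Rpl36 (-0.61 to 0.31), Rps15 (-0.53 to 0.11), Rplp1 (-0.55 to 0.16), Rpl7 (-0.23 to 0.052), Rpl10 (-0.28 to 0.13), Rpl36a (-0.42 to 0.17), Rpl39 (-0.55 to 0.071), Rps27l (-0.22 to 0.18), Rps27 (-0.47 to 0.35) and Rplp2 (-0.40 to 0.16), each turning without WT 3. They also crossed 0 for Rps6 (-0.0052 to 0.23, without WT 2) and Rps4x (-0.0043 to 0.11, without KO 1), and, without WT 3, for the log2 ratios of Rpl7l1 to Rpl7 (-0.13 to 0.18), Rps27l to Rps27 (-0.17 to 0.21) and Rplp1 to Rplp2 (-0.13 to 0.0020). The cause was not tested. The tested members had a mean of 3.56 to 546 CPM over the libraries. The 3 members under the count filter could not be compared.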
